A study of Mus musculus with 8 samples.

Results

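The genes described here build bone: Runx2, Sp7, Dlx5, Dlx6, Alpl, Col1a1, Col1a2, Spp1 and Bglap. They were chosen by name, and each was represented by a fixed window of mouse build mm9 from 20 to 360 kb long. Dlx5 and Dlx6 share 1 window, so the 9 genes gave 8 windows of 620 kb in all, of which the Runx2 window makes up 58.1%. A peak, a stretch of the genome called as enriched, was assigned to a window when its midpoint lay inside. By this rule the windows held 16 of the 32017 KDM4B peaks of WT cells and 35 of the 55306 H3K9me3 peaks of KO cells.

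The study used chromatin immunoprecipitation sequencing (ChIP-seq) in primary mouse mesenchymal stem cells from bone marrow, after 4 hours of osteogenic induction. KO cells came from Prx1Cre; Kdm4bf/f mice and WT cells from Prx1Cre; Kdm4bw/w mice, so both genotypes carry the Cre. Prx1 drives Cre in limb mesenchyme, and their age and sex are not stated in these sources. There was 1 library per antibody and genotype, for KDM4B, H3K9me3 and total histone H3, so differences between genotypes carry no test. The intervals given are 95% exact Poisson intervals for counts and 95% exact binomial intervals for shares, and they cover counting error only. Depth was given for H3 in WT alone, with 40420466 tags after filtering. The peak lists hold no expression values, so the labelled cell type was not checked against markers.

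KDM4B is a demethylase that takes methyl groups off lysine 9 of histone H3, and the trimethylated form, H3K9me3, is a mark of repressed chromatin. In the bone lineage, Runx2 and then Sp7 (osterix) are the transcription factors that commit a progenitor to the osteoblast fate, and Dlx5 and Dlx6 are homeobox factors that act with them in the skeleton. Their targets include the matrix enzyme and proteins of bone: alkaline phosphatase (Alpl), the chains of type I collagen (Col1a1, Col1a2), osteopontin (Spp1) and osteocalcin (Bglap). Runx2 binds a short DNA element that is found in many of these genes.

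To show what such regulatory sequence looks like, the 250 bases before the start of a gene are printed for Runx2, for Spp1, for Bglap and for Alpl. Runx2 and Spp1 stand for windows with KDM4B peaks, and Alpl and Bglap for windows with H3K9me3 alone. The sequences are from RefSeq, build GRCm38.p6, 5′ to 3′, and capitals mark ACCACA, the core letters of the element Runx2 binds, searched on both strands (TGTGGT on the other). The build differs from that of the peaks, so no peak was placed on them.

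Runx2, chr17:44814628-44814877, minus strand: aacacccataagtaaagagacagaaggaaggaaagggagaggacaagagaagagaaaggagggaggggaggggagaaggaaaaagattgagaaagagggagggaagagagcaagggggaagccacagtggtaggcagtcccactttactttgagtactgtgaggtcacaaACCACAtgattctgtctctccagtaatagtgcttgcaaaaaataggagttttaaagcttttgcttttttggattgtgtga

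Spp1, chr5:104434861-104435110, plus strand: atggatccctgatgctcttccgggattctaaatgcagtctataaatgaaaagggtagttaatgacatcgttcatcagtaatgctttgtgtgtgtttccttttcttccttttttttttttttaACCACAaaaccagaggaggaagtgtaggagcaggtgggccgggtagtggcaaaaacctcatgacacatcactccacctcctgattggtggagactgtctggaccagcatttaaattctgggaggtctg

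Bglap, chr3:88384467-88384716, minus strand: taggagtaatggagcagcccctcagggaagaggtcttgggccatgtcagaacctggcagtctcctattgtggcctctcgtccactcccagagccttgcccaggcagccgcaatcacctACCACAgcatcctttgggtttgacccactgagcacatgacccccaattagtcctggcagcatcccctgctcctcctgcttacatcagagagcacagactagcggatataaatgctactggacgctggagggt

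Alpl, chr4:137796385-137796634, minus strand: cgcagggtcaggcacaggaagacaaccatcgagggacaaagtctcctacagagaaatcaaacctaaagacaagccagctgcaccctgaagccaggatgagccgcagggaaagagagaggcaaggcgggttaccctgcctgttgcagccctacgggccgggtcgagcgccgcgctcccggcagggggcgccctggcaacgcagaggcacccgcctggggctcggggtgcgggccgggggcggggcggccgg

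The motif began 80 bases before the start of Runx2, 128 before that of Spp1 and 132 before that of Bglap, once in each. It was not among the letters printed for Alpl, nor in the entry for Col1a2 and the second entries for Spp1 and Alpl, which are not printed. In all, 3 of the 7 entries of these genes held it, and 14% of the 32851 RefSeq promoters hold it in this stretch. The printed sequences differed in CG dinucleotides, which numbered 0 for Runx2, 3 for Spp1, 4 for Bglap and 20 for Alpl, against a median of 6. The second entry for Alpl had 4 and that for Spp1 had 3, so the high number belongs to 1 Alpl entry and not to the gene. Of the 9 genes, 5 had an entry in the promoter table. Sp7, Dlx5, Dlx6 and Col1a1 had none.

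KDM4B in WT cells was called at the transcription factors Runx2 and Sp7 and at the matrix gene Spp1, and at none of the other windows. Runx2 had 11 peaks (5.49 to 19.7) covering 7.16 kb, Sp7 had 1 (0.0253 to 5.57) covering 0.443 kb, and Spp1 had 4 (1.09 to 10.2) covering 1.73 kb. The windows of Dlx5 and Dlx6, Alpl, Col1a1, Col1a2 and Bglap had 0 (0 to 3.69), a count taken to allow up to 3 in each. KO cells had 0 KDM4B peaks in all 8 windows. A WT peak with no KO peak was also found in 55.4% of genome tiles of 360 kb, the length of the Runx2 window, in 18.5% of tiles of 35 kb, that of Sp7, and in 12.7% of tiles of 20 kb, that of Spp1. The other windows, without a KDM4B peak, had the lengths of tiles of which 16.7% (30 kb), 21.6% (45 kb) and 27.7% (70 kb) met the same rule. The whole KO list had 35 KDM4B peaks, and only 0.21% of 360 kb tiles held one, so the absence from these windows is what most of the genome shows.

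H3K9me3 in KO cells was called in 6 of the 8 windows, and in WT cells in none. Alpl had 9 peaks (4.12 to 17.1), Runx2 and Sp7 had 8 each (3.45 to 15.8), Col1a1 had 5 (1.62 to 11.7), the window of Dlx5 and Dlx6 had 4 (1.09 to 10.2) and Bglap had 1 (0.0253 to 5.57). Col1a2 and Spp1 had 0. The 35 KO peaks covered 9997 bp, or 1.61% of the windows, close to the 1.5% under KDM4B in WT cells. Without the long Runx2 window the shares were apart, 3.01% for H3K9me3 in KO and 0.834% for KDM4B in WT cells. Over the genome the H3K9me3 list of KO cells covered 17.1 Mb and the KDM4B list of WT cells 24.2 Mb. The 2 lists came from different callers (MACS2 and MACS), with median widths of 256 and 509 bp, so their covered shares are not like measures. A KO peak with no WT peak was found in 20.2% of tiles of 20 kb, 25.3% of 30 kb, 27.4% of 35 kb, 31.1% of 45 kb, 38.0% of 70 kb and 62.3% of 360 kb. The tiles include stretches without genes, whereas each window was meant to hold its gene. That it does could not be checked without an mm9 annotation, so each count belongs to the window that carries the gene's name.

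The genotype contrast at these genes was therefore 0 WT against 35 KO peaks (24.4 to 48.7). Across the genome the H3K9me3 lists held 943 and 55306 peaks, so the KO list was 58.6 times as long. WT peaks were so few that only 5.16% of 360 kb tiles and 0.533% of 30 kb tiles held one. The nearest WT peak to any of the windows lay 478 kb beyond the higher end of the Spp1 window. The part that depth, calling threshold or spike-in played in the difference in list length was not tested. Total H3 had 0 peaks in the windows in both genotypes, from lists of 38 WT and 28 KO peaks.

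**Figure D1:**
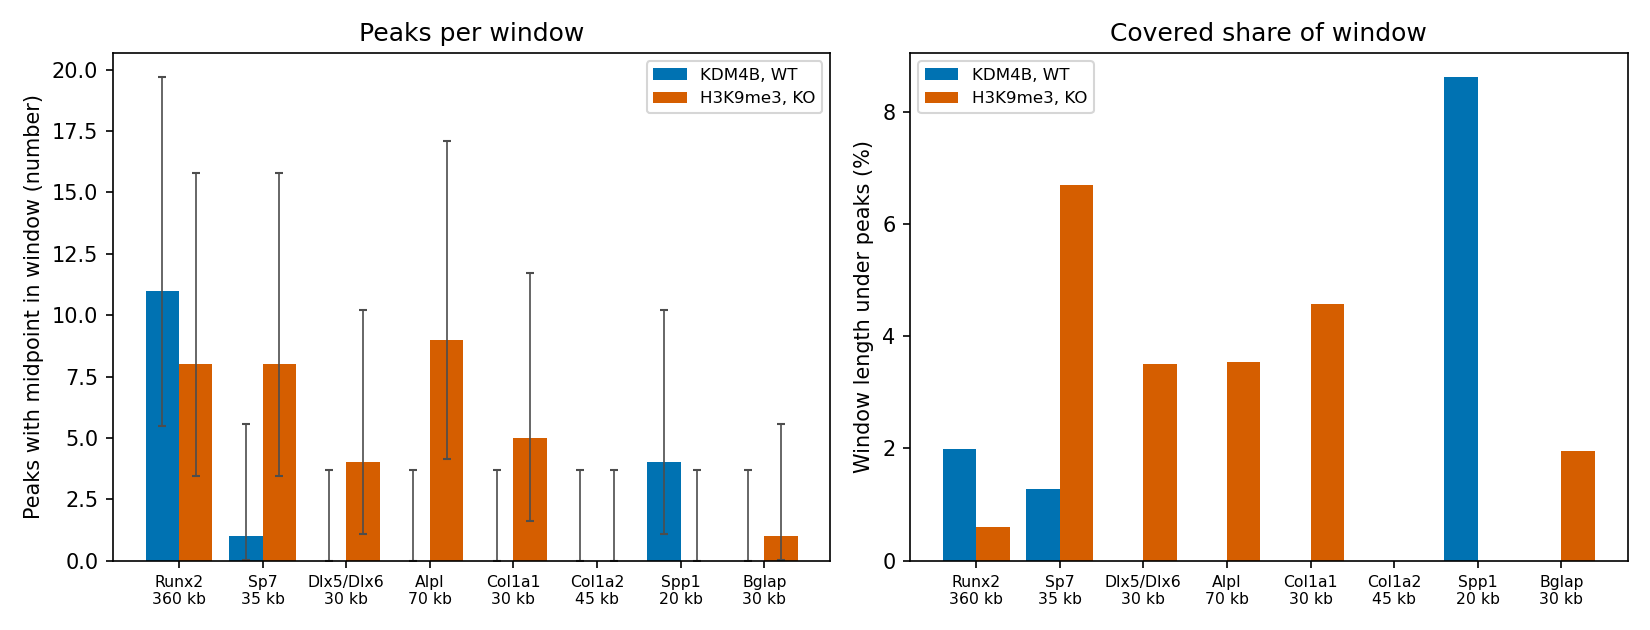
Peaks with midpoint in each window (left, number, bars with 95% Poisson intervals) and the share of each window under peaks (right, %), for KDM4B in WT and H3K9me3 in KO cells, 1 library each, with the window length under each name. KDM4B bars stand at Runx2, Sp7 and Spp1 only, H3K9me3 bars at all windows but Col1a2 and Spp1, and Spp1 has the highest covered share, 8.62%.

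Where the peaks of the 2 lists stood relative to each other differed from gene to gene. Both were present at Runx2 and Sp7, KDM4B alone at Spp1, H3K9me3 alone at Dlx5 and Dlx6, Alpl, Col1a1 and Bglap, and neither at Col1a2. The overlap of a KDM4B peak with an H3K9me3 peak, by at least 1 bp, occurred in 1 window, that of Runx2. Such an overlap was found in 37.8% of tiles of 360 kb, against 4.67% of 20 kb, 6.63% of 30 kb, 7.54% of 35 kb, 9.34% of 45 kb and 13.2% of 70 kb. Of the 16 KDM4B peaks of the windows, 2 overlapped H3K9me3 of KO cells, or 12.5% (1.55 to 38.3%), and 22.8% of all KDM4B peaks did. Of the 35 H3K9me3 peaks, 5 overlapped KDM4B, or 14.3% (4.81 to 30.3%), and 15.7% of all KO peaks did. Both intervals hold the genome share, but they treat the peaks as independent. All the overlapping peaks lay at 1 place in the Runx2 window, so the intervals cannot decide whether the shares differ from the genome. Without the Runx2 window the counts were 0 of 5 KDM4B peaks (0 to 52.2%) and 0 of 27 H3K9me3 peaks (0 to 12.8%). A limit of 3 counts, as taken here for a count of 0, would be 11.1% of the H3K9me3 peaks.

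**Figure D2:**
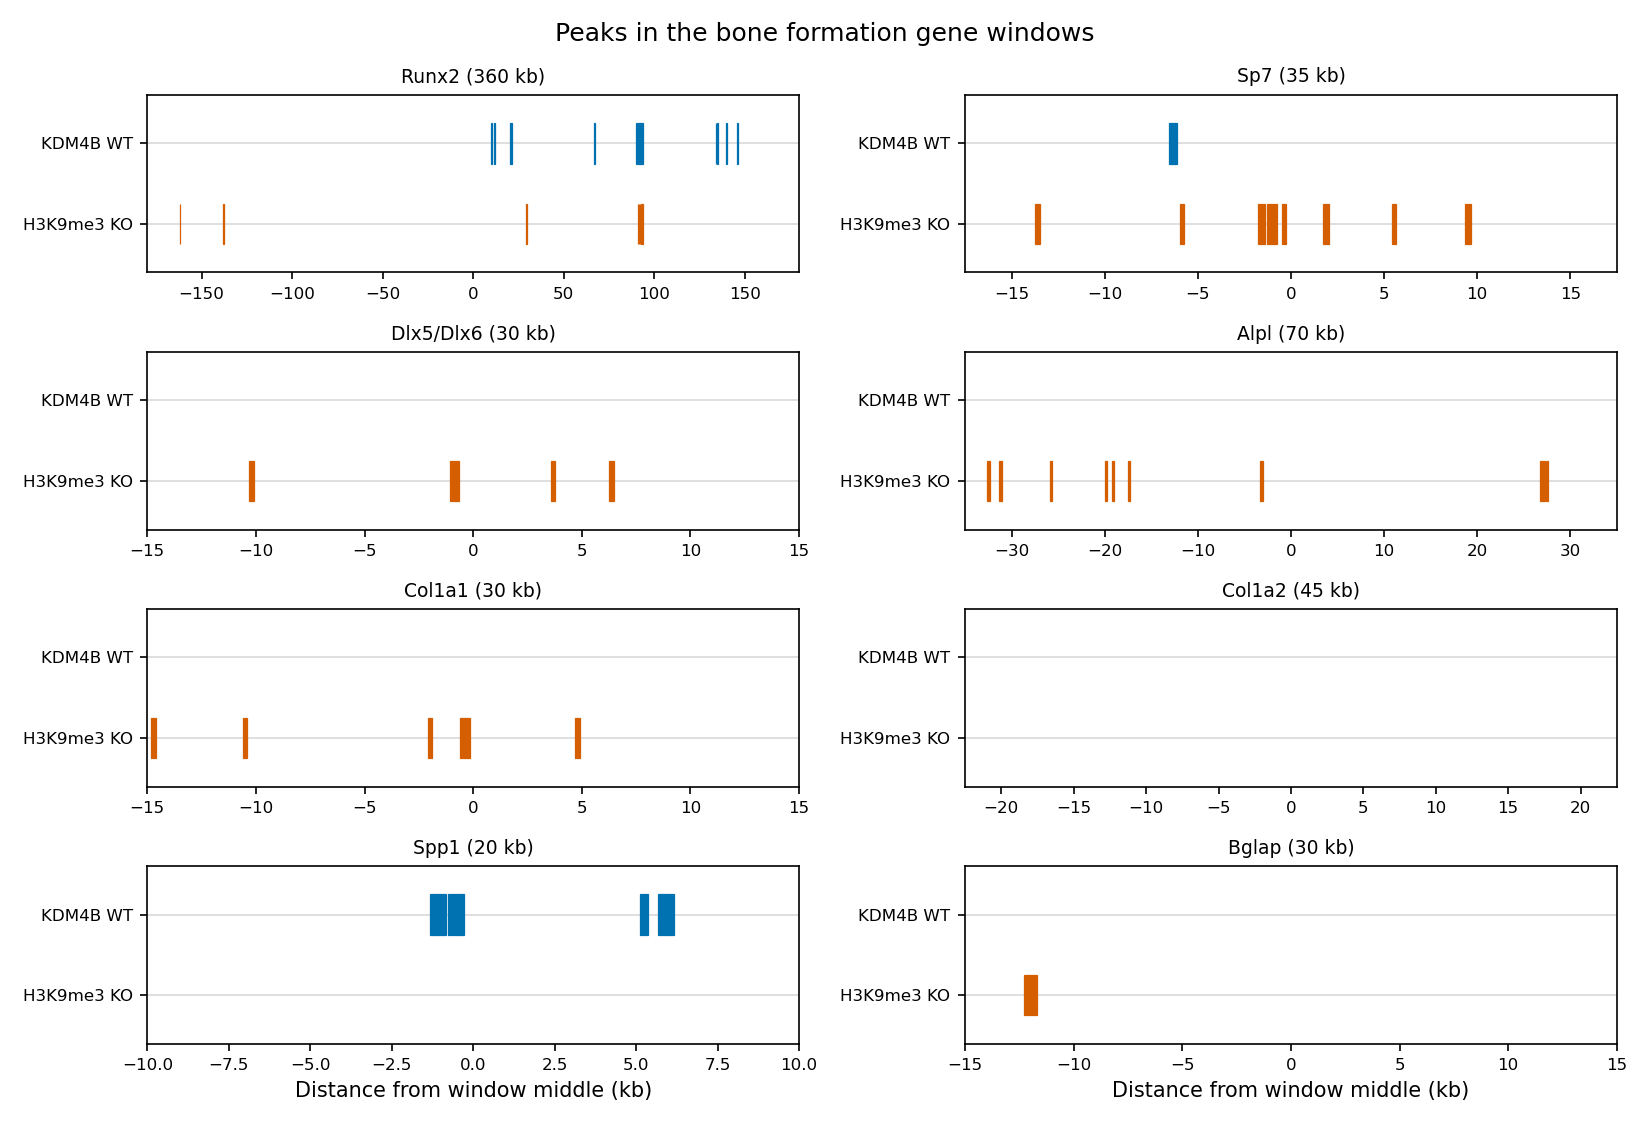
Positions of KDM4B peaks in WT (upper line, blue) and H3K9me3 peaks in KO cells (lower line, orange) in each window, as distance from the middle of the window in kb, with a thin outline so that narrow peaks show. The scale differs between panels. The lists meet in the Runx2 panel at about 92 kb right of the middle, and the Col1a2 panel is empty.

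Runx2, the factor at the head of the osteoblast program, had its 11 KDM4B peaks in the higher-coordinate part of the window, between 44790056 and 44926254 on chromosome 17, a span of 136 kb. They were from 247 to 2293 bp wide. The first 190 kb of the window held none. The widest, from 44871213 to 44873505, was also the widest KDM4B peak of all windows, and 3.57% of the whole list was at least as wide. With its neighbours from 44870132 to 44870550 and from 44870856 to 44871153 it formed a group of 3 peaks within 3.37 kb. The second widest, from 44800199 to 44801312, measured 1.11 kb and had no H3K9me3 peak on it.

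The same place carried most of the H3K9me3 of the Runx2 window. Of its 8 KO peaks, 5 lay within 2.64 kb, from 44871014 to 44873657, and all 5 touched KDM4B peaks. They shared 15, 364, 282, 365 and 51 bp with the widest KDM4B peak, 1077 bp together or 47% of its length. The first of them also overlapped the narrow KDM4B peak beside it, and the fourth, from 44872767 to 44873131 at 365 bp, was the widest H3K9me3 peak of the window. Of the 1144 KDM4B peaks of WT cells at least as wide, 61.5% overlapped a KO H3K9me3 peak, and 3.15% overlapped 5 or more. The other 3 H3K9me3 peaks, from 44617748, 44641844 and 44809252, were 199 to 284 bp wide. None of them touched KDM4B, and the third lay closest to it.

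**Figure D3:**
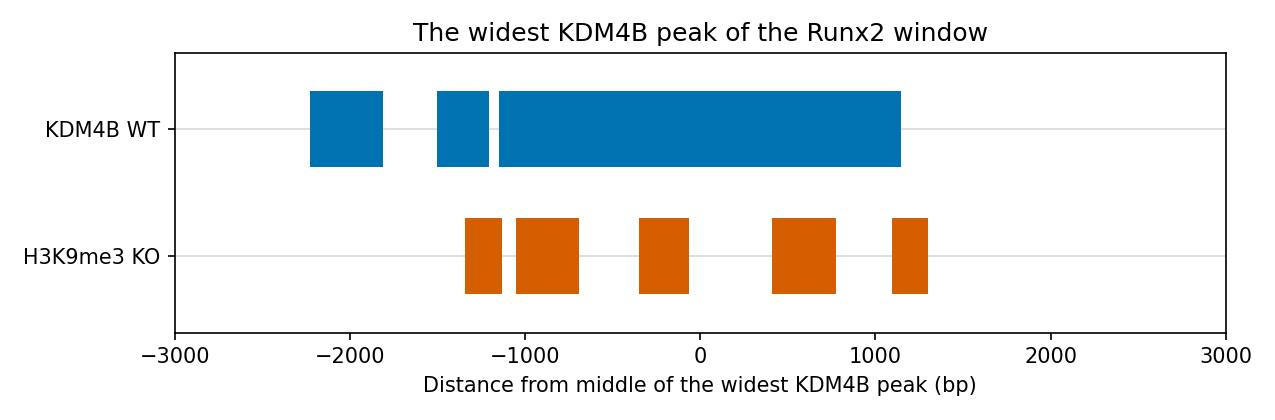
KDM4B peaks in WT (blue) and H3K9me3 peaks in KO cells (orange) around the widest KDM4B peak of the Runx2 window, drawn to scale as distance from its middle in bp. The 5 H3K9me3 peaks of 203 to 365 bp are spread along the KDM4B peak of 2293 bp, with gaps between them, and the outer ones reach past its ends.

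The Runx2 window held more KDM4B peaks than either stretch beside it, whereas for H3K9me3 it only equalled the lower one. It held 11 KDM4B peaks, while the 360 kb on its lower side held 1 and the 360 kb on its higher side 0. H3K9me3 numbered 8 in the window, 8 on the lower side and 0 on the higher. Its density was 0.222 peaks per 10 kb in the window and 0.111 over both flanks together. Over the genome, 15.1% of 360 kb tiles had at least as many KDM4B peaks as Runx2 and 27.4% at least as many H3K9me3 peaks. Among tiles with a peak of any list these shares were 20.9% and 37.8%. Tiles that reach a count above 0 all belong to that set, so such shares could only be higher, here and for the windows below. Runx2 is known to have a distal and a proximal promoter. No gene annotation of mm9 was used here, so the peaks were assigned neither to a promoter nor to an exon or intron, and in gene order Supt3 is the next protein-coding gene, whose peaks the window could also hold.

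Sp7, which acts downstream of Runx2, had many H3K9me3 peaks and a single KDM4B peak. Its 8 KO peaks were 199 to 521 bp wide and covered 6.69% of the 35 kb window, the highest H3K9me3 share of the 8 windows. The widest lay on chromosome 15 from 102186218 to 102186738, in a group of 3 peaks within 1.47 kb near the middle of the window. The KDM4B peak, from 102180957 to 102181399, ended 151 bp before the H3K9me3 peak that starts at 102181551, without sharing a base with it. The remaining H3K9me3 peaks lay up to 11.5 kb from a KDM4B peak.

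Density of H3K9me3 at Sp7 was 2.29 peaks per 10 kb, against 0.857 in flanks of the same length, with 3 peaks on each side. At least 8 such peaks were found in 2.04% of 35 kb tiles, and in 5.9% of those with a peak of any list. KDM4B went the other way, with 1 peak in the window, 3 in the lower and 7 in the higher flank. Just past the higher end, 2.49 kb away, a KDM4B peak from 102207489 to 102208035 overlapped an H3K9me3 peak of KO cells from 102207043 to 102207929. It lies outside the window and is not counted in it. In gene order, Aaas precedes Sp7 and Sp1 follows it, and the window is longer than Sp7 itself (10.4 kb in RefSeq), so peaks of a neighbour may be among those counted.

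**Figure D4:**
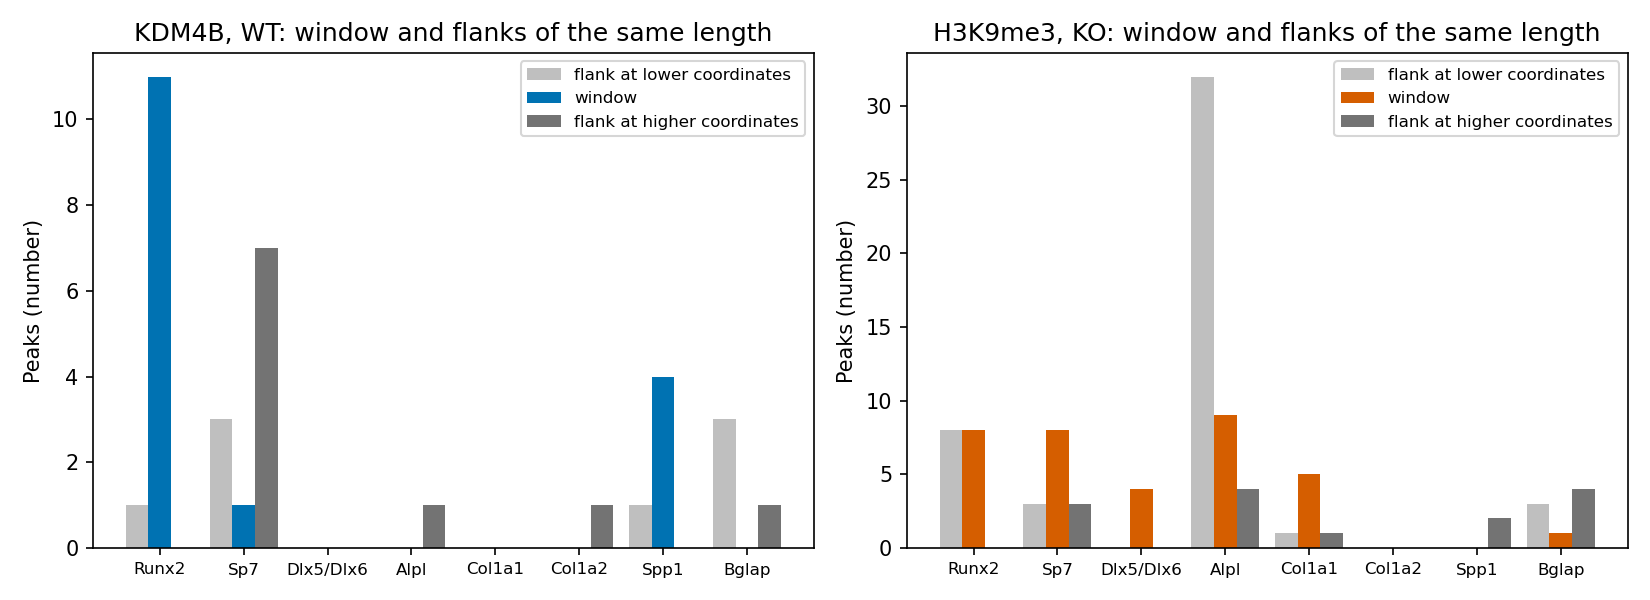
Number of peaks in each window (coloured) and in the stretch of the same length at lower (light grey) and higher (dark grey) coordinates, for KDM4B in WT (left) and H3K9me3 in KO cells (right). KDM4B is higher in the window than in both flanks at Runx2 and Spp1, and H3K9me3 is so at Sp7, Dlx5/Dlx6 and Col1a1, where for Col1a1 flanks 2 times as long have 1.58 peaks per 10 kb against 1.67 in the window.

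Dlx5 and Dlx6, the paired homeobox genes, had 4 H3K9me3 peaks in KO cells and no KDM4B peak in WT. The peaks were 199 to 387 bp wide and covered 3.51% of the 30 kb window. The widest lay on chromosome 6 from 6823938 to 6824324, 0.87 kb from the middle of the window. They stood alone: both flanks of 30 kb held 0 peaks of either list, and the next H3K9me3 peaks were 494 kb away on the lower side and 66 kb on the higher. KDM4B was farther, with the closest peaks of WT cells 281 and 956 kb beyond the window ends. At least 4 H3K9me3 peaks were found in 5.85% of 30 kb tiles, and in 18.2% of those with a peak of any list.

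Alpl, the alkaline phosphatase of mineralizing matrix, had the most H3K9me3 peaks, 9 in 70 kb, or 3.54% of the window. They were 199 to 481 bp wide. The widest lay near the higher end on chromosome 4, from 137351740 to 137352220, beside a peak of 199 bp, and 6 of the others lay in the lower part between 137292309 and 137307723. At least 9 were found in 5.14% of 70 kb tiles, and in 11.1% of those with a peak of any list. The flanks of the same length were unequal, with 32 H3K9me3 peaks on the lower side, more than in the window, and 4 on the higher, fewer than in the window. No KDM4B peak lay within 57.7 kb of the window ends.

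Collagen genes differed from each other. Col1a1 had 5 H3K9me3 peaks in KO cells, 215 to 461 bp wide and covering 4.58% of 30 kb, the widest on chromosome 11 from 94804383 to 94804843. The flanks of the same length had 1 peak each, but flanks 2 times as long had 4 and 15, or 1.58 per 10 kb against 1.67 in the window. At least 5 peaks were found in 4.13% of 30 kb tiles, and in 12.8% of those with a peak of any list. One of the 5, from 94790147 to 94790368, lay 0.146 kb inside the window end. Col1a2 had no peak in any of the 6 lists. Its nearest KDM4B peak of WT cells was 43.1 kb and its nearest H3K9me3 peak of KO cells 55.6 kb beyond the higher end. Of the 45 kb tiles, 68.4% had no H3K9me3 peak of KO cells either. Tiles with a peak of any list give no measure for this window, since it has no peak of any list. KDM4B was called at neither collagen gene.

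Spp1, the gene of the secreted matrix protein osteopontin, was the reverse case, with KDM4B and no H3K9me3. Its 4 KDM4B peaks formed 2 pairs on chromosome 5. The first pair lay from 104863669 to 104864175 and from 104864231 to 104864723, separated by 0.055 kb. The second lay from 104870115 to 104870365 and from 104870687 to 104871160. The widest measured 507 bp, near the median of 509 bp of all KDM4B peaks, and together they covered 8.62% of 20 kb. At least 4 were found in 1.73% of 20 kb tiles, and in 6.61% of those with a peak of any list, and the flanks held 1 and 0. The nearest H3K9me3 peak of KO cells lay 12.8 kb past the higher end. No H3K9me3 peak of KO cells was found in 79.6% of all 20 kb tiles. Among tiles with a peak of any list the share was 21.7%, but tiles could enter that set through an H3K9me3 peak of KO cells. Of the 20 kb tiles with a KDM4B peak of WT cells, as here, 56.6% held one. Mepe precedes and Pkd2 follows Spp1 in gene order.

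Bglap, which encodes the late osteoblast product osteocalcin, had 1 H3K9me3 peak in KO cells. It lay on chromosome 3 from 88167730 to 88168315, 12 kb to the lower side of the middle of the window. At 586 bp it was the widest H3K9me3 peak of the 8 windows, and 5.15% of the KO list was at least as wide. A single such peak was no rarity, since 25.6% of 30 kb tiles had at least 1, and the flanks had 3 and 4. Among tiles with a peak of any list the share was 79.8%, but tiles could enter that set through such a peak. The closest KDM4B peaks lay 23.2 and 18.5 kb outside, and the one on the higher side overlapped an H3K9me3 peak of KO cells. Bglap2 and Bglap3, near-identical copies, precede Bglap in gene order, and the sources do not state how reads that match several copies were treated, so the count for Bglap is uncertain.

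Over all windows, the distance of H3K9me3 in KO cells from KDM4B varied from overlap to 302 kb. The median gap from an H3K9me3 peak to the nearest KDM4B peak was 47.6 kb over the 35 peaks and 17.5 kb over the whole KO list. Gaps above 10 kb held 23 of the 35 peaks, or 65.7%, against 59.6% of all KO peaks. Gaps above 50 kb held 17 of the 35 peaks, or 48.6%, against 28.5% of all KO peaks. Gaps up to 1 kb, overlaps included, held 6, or 17.1%, against 21.2%. Of the 35 peaks, 19 lay in the 4 windows that had H3K9me3 without any KDM4B peak. Peaks of 1 window share a neighbourhood and are not independent, so the median describes these windows only.

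**Figure D5:**
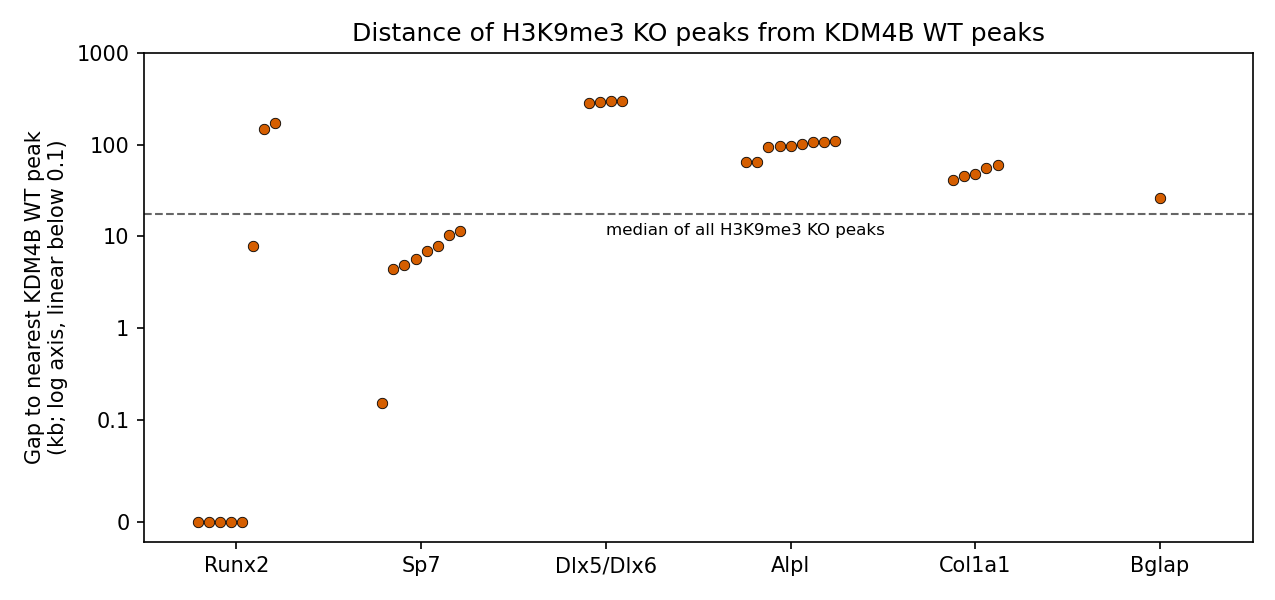
Gap in kb (log axis, linear below 0.1) from each of the 35 H3K9me3 peaks of KO cells to the nearest KDM4B peak of WT cells, by window, with the median of all KO peaks, 17.5 kb, as a dashed line. At Runx2, 5 peaks overlap KDM4B, all Sp7 peaks are below the line, and all peaks of Dlx5/Dlx6, Alpl, Col1a1 and Bglap are above it.

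Presence of KDM4B did not separate the windows with H3K9me3 from those without. H3K9me3 of KO cells was present in 2 of the 3 windows with a KDM4B peak and in 4 of the 5 without. The share of tiles with H3K9me3 was higher in longer tiles, from 56.6% with KDM4B and 15.1% without it at 20 kb, over 62.2% and 18.3% at 30 kb, to 91.1% and 36.9% at 360 kb. With 8 windows of unequal length no difference from these shares could be tested.

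Median peak widths in the windows were somewhat below those of the lists they came from. The median was 458.5 bp for the 16 KDM4B peaks and 509 bp for all KDM4B peaks, and 243 bp for the 35 H3K9me3 peaks and 256 bp for all KO peaks. Of the 35, 9 had the smallest width of the KO list, 199 bp, or 25.7% against 20.8% of the whole list. The lists give no height or score, so strong and weak peaks could not be told apart.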

How the data were processed

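ChIP-seq peaks were deposited by the authors as 1 list per library, for KDM4B, H3K9me3 and H3 in WT and KO; the 2 input samples were not analysed here. Per the submitters' processing notes, Bowtie, SAMtools and MACS (KDM4B) or MACS2 (others) were used, with builds mm9 and hg19. Tool versions and calling thresholds are known for H3 in WT alone, called by MACS2 2.1.4 at a q-value threshold of 0.05, per the file headers; for the others they are not given in the sources. That table alone holds the deposited pileup signal, fold enrichment, −log10 p-value and −log10 q-value of each peak. On 9 of 21 chromosomes the last peak lies past the last gene of the GRCm38.p6 table, which was therefore used for gene order, gene length and promoter sequence alone.

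Peaks were taken as called. Windows were compared with non-overlapping tiles of their own length over the peak-bearing span of the 19 autosomes, and with flanks of equal length. Python 3.11.15, numpy 2.4.6, scipy 1.17.1 and matplotlib 3.10.9 were used. The overlap counts equalled those of bedtools 2.31.1, and on simulated data all 1582 and 6403 overlaps planted among 32017 peaks were recovered. A count of 0 is given with the limit it allows, taken as 3 counts.

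The genes and windows were chosen with earlier results of these data known. By rule, the text names the widest peak of each list per window, KDM4B peaks that overlap H3K9me3, and every peak of the short lists. Other positions were chosen after their values were seen.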

Additional observations from a re-analysis of the deposited data

How the results depend on the processing

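With 1 library per group no replicate could be left out, and no paired analysis was possible because the groups share no replicate beyond 1 library each. The count of 0 in the other genotype held for KDM4B and H3K9me3, and H3 stayed at 0 in both. No alternative run could have changed this, since none reached more than 10 kb beyond a window. Of the lists with 0 peaks in the windows, the nearest peak lay 478 kb beyond a window end. Counting only peaks at or above the median width of their list left 5 KDM4B and 15 H3K9me3 peaks. All 5 of these KDM4B peaks lay in the Runx2 window, so none was left at Sp7 or Spp1. Without the Runx2 window there were 5 KDM4B peaks, and the overlap was 0% in both directions. Merging peaks within 1 kb put the overlapping share of H3K9me3 at 3.7%, since the 5 peaks at Runx2 became 1. Counting peaks within 1 kb as overlapping gave 4 of 16 KDM4B peaks (25%), with the peak of Sp7 and another at Runx2 added. Windows extended by 10 kb at each end held 19 KDM4B and 49 H3K9me3 peaks. Among tiles with a peak of any list, 5.9% had at least as many H3K9me3 peaks as Sp7. For KDM4B, 6.61% had at least as many as Spp1 and 20.9% at least as many as Runx2. These shares had to rise, since only tiles without any peak were left out. The depth behind 5 of the lists is unknown, so a missing peak cannot be told from one under the threshold.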
